A study of Homo sapiens with 6 samples.

Results

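The genes described here are the 3 kinds of isocitrate dehydrogenase (IDH1, IDH2 and the subunit genes IDH3A, IDH3B and IDH3G) with citrate synthase (CS), fumarate hydratase (FH) and the malate dehydrogenases (MDH1 and MDH2). They were taken by gene symbol, each symbol matched 1 row, and they make up 9 of the 56832 rows of the count tables. Poly(A) RNA was sequenced from HEK293T, an embryonic kidney line of human origin, in a derivative with GLO1 knocked out. GLO1 encodes glyoxalase 1, the first enzyme of the pathway that detoxifies methylglyoxal (MGO), which forms as a by-product of glycolysis. The untreated group held 3 libraries, numbered 1, 2 and 4, and the MGO group held 3 libraries, numbered 1, 3 and 4, from cells given 0.2 mM MGO in the medium overnight. Both groups carry the knockout, no library of cells with intact GLO1 was analysed here, and the labels do not say if the knockout line is 1 clone.

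The citric acid cycle burns acetyl groups in the mitochondrial matrix. CS joins acetyl-CoA to oxaloacetate to make citrate, aconitase turns citrate into isocitrate, and isocitrate dehydrogenase oxidises isocitrate to 2-oxoglutarate, while FH and MDH2 act late in the cycle and regenerate oxaloacetate. Isocitrate is oxidised by 3 separate enzymes. The NAD-dependent enzyme, built of alpha, beta and gamma subunits from IDH3A, IDH3B and IDH3G, is the form counted as part of the cycle, IDH2 is an NADP-dependent enzyme of the same compartment, and IDH1 is its NADP-dependent counterpart in the cytosol and peroxisomes. Cytosolic malate dehydrogenase (MDH1) likewise has a mitochondrial partner, MDH2, and FH protein is found in both compartments.

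Library totals ran from 41002134 to 45910040 counts in untreated and from 19195920 to 21544749 in MGO, so every MGO library was shallower than every untreated one, and depth and treatment cannot be told apart by design. Mitochondrially encoded RNA took between 4.20% and 5.42% of the untreated counts, and 8.17%, 6.00% and 5.34% of the counts of MGO 1, 3 and 4 (two-sided exact permutation p = 0.2, n = 3 each). The targeted gene GLO1 had reads in each library, with a mean of 48.1 ± 2.57 CPM (untreated) and 140 ± 5.30 CPM (MGO; SD, n = 3 each), where CPM is the count scaled to a common library size by TMM. The labels do not describe the lesion, and these gene-level values do not check the knockout. All 6 markers used for HEK293T cells had counts in every library and summed to 1189 to 1234 CPM in untreated and 1552 to 1568 CPM in MGO, though PAX2 (13.2 to 2.78 CPM), CDH2 (206 to 94.7 CPM) and NEFM (1.57 to 0.44 CPM) were lower in MGO. The 5 leukocyte markers summed to 0.582 to 0.982 CPM in untreated and 0.713 to 1.11 CPM in MGO, and the 3 endothelial markers to 0.146 to 0.172 CPM and 0.285 to 0.442 CPM. The 4 fibroblast markers summed to between 23.3 and 24.5 CPM in untreated and between 10.9 and 12.8 CPM in MGO, nearly all of it COL1A1, with COL1A2 at 0 counts in every library. The part of these levels in the results was not tested. Separate cultures are not stated in any label, and all p-values then speak only of the spread among these libraries, which may be technical.

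IDH1 was the exception among the members. Its transcript fell to 0.105 times its untreated level in MGO, while the transcripts of the other 8 members moved by less than 1.4-fold. IDH1 (GRCh38 chromosome 2, 208236227 to 208266074, minus strand) drew 6135 reads from untreated library 1, 6242 from library 2 and 5675 from library 4. MGO library 1 gave 267 reads, library 3 gave 269 and library 4 gave 265. In CPM, IDH1 stood at 132.3, 130.4 and 133.3 across the untreated libraries and at 14.8, 14.4 and 12.6 across the MGO libraries. The untreated libraries lay close together, and every MGO library was far below all of them. The fall was 9.51-fold (log2 fold change -3.25, SE 0.0523, adjusted p = 1.15e-30, edgeR quasi-likelihood test with Benjamini-Hochberg adjustment over all 17415 genes tested). Only 68 of the tested genes (0.39%) had a lower log2 fold change than IDH1. Under every alternative tried the log2 fold change of IDH1 lay between -3.43 and -3.18, with the call kept in 19 of 19. In bulk RNA, fewer cells that express a gene and less of its RNA per cell cannot be told apart.

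**Figure D1:**
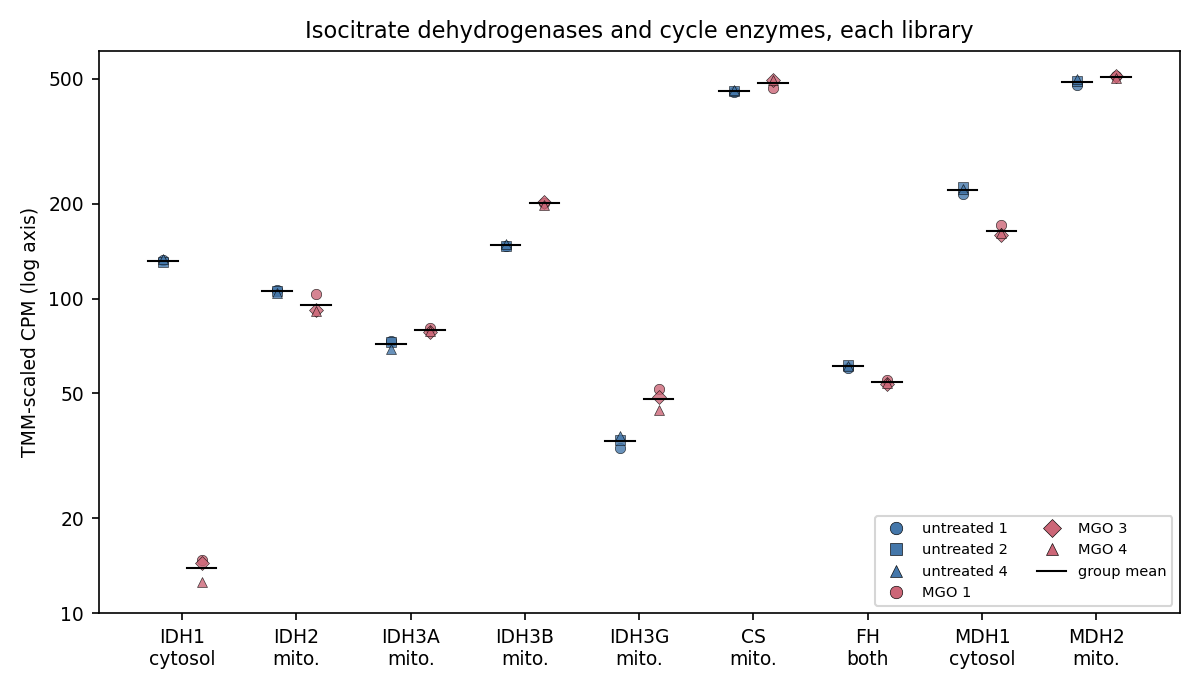
Level of each member in each library, as TMM-scaled CPM on a log axis; blue marks are the 3 untreated libraries, red marks the 3 MGO libraries, mark shapes give the library number and black bars the group means. IDH1 drops from a mean of 132 to 13.9 CPM, and no other member shows a gap of comparable size.

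Reads of a neighbouring gene could enter these counts, since no source used here says if counting was by strand. The antisense gene IDH1-AS1 overlaps IDH1 by 935 bases and was not analysed here. PIKFYVE, a lipid kinase gene that begins 192 bases beyond IDH1 on the other strand, fell far less, with means of 41.8 ± 1.05 and 34.8 ± 1.92 CPM (untreated and MGO; adjusted p = 2.44e-05, edgeR).

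A promoter window of IDH1 is shown with those of CS and MDH2, as examples of windows with like and with other motif matches. The windows are the 250 bases before a RefSeq start (GRCh38.p14, minus strand for IDH1 and CS, plus strand for MDH2). Each line gives the bases of a window that come before the first annotated exon base of the gene within it. Capitals mark matches, on either strand, to the motifs named after the sequences. The regions are chr2:208255134-208255321 for IDH1, chr12:56300393-56300580 for CS and chr7:76047856-76048050 for MDH2. The IDH1 region lies inside the annotated gene, whose outermost start on the minus strand is at 208266074, and it overlaps the antisense gene IDH1-AS1.
IDH1: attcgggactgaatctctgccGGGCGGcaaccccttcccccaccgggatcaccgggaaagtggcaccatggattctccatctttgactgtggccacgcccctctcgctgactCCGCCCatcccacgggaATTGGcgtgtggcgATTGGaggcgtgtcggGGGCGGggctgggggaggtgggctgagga
CS: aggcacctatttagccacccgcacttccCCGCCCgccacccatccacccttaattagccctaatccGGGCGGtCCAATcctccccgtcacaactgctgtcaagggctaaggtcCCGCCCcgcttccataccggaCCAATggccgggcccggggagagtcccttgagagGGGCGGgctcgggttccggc
MDH2: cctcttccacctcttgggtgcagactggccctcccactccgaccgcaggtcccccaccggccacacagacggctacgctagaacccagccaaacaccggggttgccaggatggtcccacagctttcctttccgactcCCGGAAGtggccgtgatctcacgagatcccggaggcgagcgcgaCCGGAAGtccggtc
The printed IDH1 stretch holds 2 CCAAT boxes (CCAAT) and 3 GC boxes (GGGCGG), and that of CS holds 2 CCAAT boxes and 4 GC boxes. MDH2 holds neither, and has 2 copies of the ETS core CCGGAAG. Over the whole windows of 250 bases, 32% of 35116 RefSeq promoters hold a CCAAT box, 42.6% a GC box and 8.52% an ETS core. The YY1 motif AAGATGGC (1.36%) and the C/EBP-ATF motif TGATGNAA (3.14%) were in 0 of the 11 windows of the members. The palindromic NRF1 motif (5.07%) was in 2 windows, those of IDH3A and IDH3G. FH also has both kinds, with 2 CCAAT boxes and 2 GC boxes. A match is a description of letters only, and a second RefSeq start of IDH1 with the window chr2:208254459-208254708 has 1 GC box and no CCAAT box.

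IDH2, the mitochondrial NADP-dependent form, differed little. IDH2 (chromosome 15, 90083045 to 90102504, minus strand) stood at 106.7, 105.6 and 104.1 CPM in untreated libraries 1, 2 and 4, and at 103.4, 92.0 and 91.5 CPM for MGO 1, 3 and 4. The groups do not overlap, but MGO library 1, the library with the highest mitochondrial share, sits just under the lowest untreated library. The fall of 1.10-fold passed the test (log2 fold change -0.14, SE 0.0425, adjusted p = 0.0029, edgeR). Requiring at least 1 CPM in every library ended the call (log2 fold change -0.08, adjusted p = 0.101, range over alternatives 1.45e-12 to 1), and without MGO replicate 1 the fall was larger (-0.23). ZNF710, 838 bases away on the other strand, had overlapping groups (29.8 ± 1.59 and 33.3 ± 3.87 CPM).

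Because IDH1 and IDH2 were counted in the same libraries, their ratio does not depend on how libraries are scaled. There were 1.24, 1.24 and 1.28 IDH1 counts per IDH2 count in untreated libraries 1, 2 and 4, against 0.143, 0.157 and 0.138 for MGO 1, 3 and 4. The log2 ratio thus went from 0.32 ± 0.03 to -2.78 ± 0.10 (SD, n = 3 each), an 8.58-fold lower ratio. Against IDH3A the ratio of IDH1 was 10.5-fold lower (log2 difference -3.39). The groups do not overlap in either ratio, and each had a two-sided exact permutation p of 0.1, the smallest that 3 against 3 libraries allow, adjusted to 0.1 over the 6 ratios examined, of which 5 are described.

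Of the subunits of the NAD-dependent enzyme, IDH3B and IDH3G rose under every scaling and filter tried, and IDH3A by less, with a sign that no filter on low counts turned. IDH3B (chromosome 20, 2658395 to 2664219, minus strand), the beta subunit, stood at 147.3, 147.4 and 148.7 CPM in untreated and at 202.0, 203.2 and 198.2 CPM in MGO libraries, in the order given above. It rose 1.36-fold, with groups far apart compared with their spread (log2 fold change 0.44, SE 0.0368, adjusted p = 1.48e-12, edgeR). IDH3G (X chromosome, 153785766 to 153794523, minus strand), the gamma subunit, stood at 33.6, 35.6 and 36.5 CPM in untreated and at 51.4, 48.8 and 44.1 CPM in MGO. It rose by the same 1.36-fold with a wider spread in MGO (log2 fold change 0.45, SE 0.0531, adjusted p = 4.67e-09, edgeR). The MGO libraries of IDH3G follow the order of their mitochondrial shares, as do those of IDH1, IDH2 and MDH2. Those of CS run in the reverse order, and those of the other members in neither. The part of these shares in the results was not tested. IDH3A (chromosome 15, 78131498 to 78171949, plus strand), the catalytic alpha subunit, stood at 73.5, 72.7 and 69.0 CPM in untreated and at 80.6, 78.6 and 79.2 CPM in MGO. Its groups were also separate, and it rose 1.11-fold (log2 fold change 0.15, SE 0.0404, adjusted p = 0.00148, edgeR), a call that was lost with library size as the only scaling (0.04, adjusted p = 0.392) and whose sign turned with no filter on low counts (-0.037, adjusted p = 0.52, range over alternatives 6.61e-05 to 1).

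Relative to both of its partners, the catalytic subunit was lower in MGO. Per IDH3B count there were 0.499, 0.493 and 0.464 IDH3A counts in untreated libraries and 0.399, 0.387 and 0.40 in MGO libraries, a log2 difference of -0.30 with separate groups. Per IDH3G count, IDH3A had 2.19, 2.04 and 1.89 counts in untreated and 1.57, 1.61 and 1.79 in MGO, again a log2 difference of -0.30. The second ratio has the narrowest gap of the 5 described, between untreated library 4 and MGO library 4, and each has an exact permutation p of 0.1 (two-sided, n = 3 each), the smallest possible. IDH3B ends 1 base from NOP56, a box C/D small nucleolar ribonucleoprotein gene on the other strand that went from 192 ± 3.64 to 801 ± 10.2 CPM. IDH3G overlaps the start of SSR4, a translocon-associated protein gene, by 1008 bases, and SSR4 did not pass the test (164 ± 1.41 and 159 ± 8.63 CPM, adjusted p = 0.289, edgeR). IDH3A overlaps CIB2 by 47 bases, which had 51.7 ± 2.27 and 50.5 ± 2.02 CPM, and ACSBG1 by 4482 bases, which stayed at or below 1.66 CPM. The part of reads from neighbours in the counts of the subunits was not tested.

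**Figure D2:**
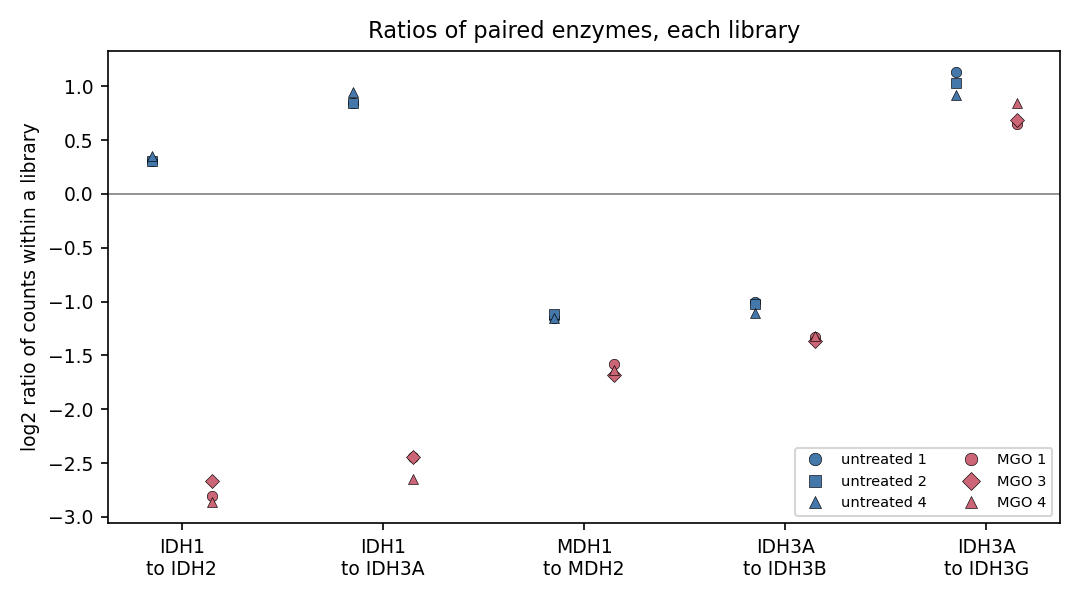
Log2 ratio of the counts of 2 genes within each library, for 5 gene pairs; blue marks are untreated and red marks MGO libraries, with shapes for the library number. The groups are separate in all 5 pairs, with differences from -3.39 for IDH1 to IDH3A to -0.30 for IDH3A to IDH3B.

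The malate dehydrogenases repeated the split between compartments on a smaller scale. MDH1 (chromosome 2, 63588609 to 63607197, plus strand), the cytosolic form, stood at 215.7, 226.0 and 223.7 CPM in untreated libraries and at 171.2, 159.4 and 161.7 CPM in MGO libraries. All MGO libraries were below all untreated ones, a 1.35-fold fall (log2 fold change -0.43, SE 0.0388, adjusted p = 8.34e-12, edgeR). MDH2 (chromosome 7, 76048051 to 76067508, plus strand), the mitochondrial form, stood at 477.9, 490.7 and 498.9 CPM in untreated and at 510.4, 510.1 and 503.2 CPM in MGO. These groups are separate by a narrow gap, and the difference did not pass the test (log2 fold change 0.05, SE 0.0340, adjusted p = 0.138, edgeR). RLE scaling gave 0.08 with a call (adjusted p = 0.0404), and library size alone or no filter on low counts turned the sign (range of adjusted p over alternatives 0.00258 to 1). Within libraries there were 0.451, 0.461 and 0.448 MDH1 counts per MDH2 count in untreated and 0.335, 0.312 and 0.321 in MGO, a 1.40-fold lower ratio that no scaling affects (exact permutation p = 0.1, two-sided, n = 3 each). MDH1 lies wholly inside WDPCP, a gene of cilium formation on the other strand, which had only 3.75 ± 0.221 CPM in untreated and 8.84 ± 0.452 CPM in MGO. STYXL1, which starts 46 bases from MDH2 on the other strand, had 24.1 ± 0.941 and 46.6 ± 3.85 CPM.

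ACO1, a cytosolic aconitase that also acts as an iron-responsive RNA-binding protein and is not a member, stood at 85.2, 84.9 and 85.6 CPM in untreated and at 52.1, 48.0 and 46.9 CPM in MGO (log2 fold change -0.80, adjusted p = 4.35e-17, edgeR). All MGO libraries of ACO1 were thus below all untreated ones. In both pairs of member enzymes compared across compartments, the cytosolic transcript was lower relative to the mitochondrial one in every MGO library, by 8.58-fold for IDH1 to IDH2 and 1.40-fold for MDH1 to MDH2. No ratio was taken for the pair of aspartate aminotransferases, which serve the malate-aspartate shuttle. There cytosolic GOT1 was higher (83.7 ± 3.29 to 118 ± 5.94 CPM, adjusted p = 2.19e-12) and mitochondrial GOT2 was lower (363 ± 3.30 to 328 ± 6.43 CPM, adjusted p = 0.000293, edgeR). GOT2 was singled out after its values were seen.

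CS and FH, at the first step and near the last step of the cycle, differed by small amounts. CS (chromosome 12, 56271699 to 56300392, minus strand) stood at 454.9, 456.1 and 460.0 CPM in untreated and at 468.7, 494.5 and 495.6 CPM in MGO. Every MGO library was above every untreated one, with MGO library 1 closest (log2 fold change 0.09, SE 0.0347, adjusted p = 0.0189, edgeR). This call did not hold well. It was lost without untreated replicate 1, 2 or 4 (adjusted p from 0.0669 to 0.095) and without MGO replicate 3 or 4 (0.292 and 0.313), and the sign turned with library size alone (-0.016) and with no filter on low counts (-0.093), in a range of adjusted p over alternatives of 0.000361 to 1. CS overlaps 2 genes, AC073896.1 and AC073896.2, that were not analysed here, and COQ10A, 732 bases away, had 18.6 ± 0.530 and 12.1 ± 0.537 CPM. FH (chromosome 1, 241497603 to 241519761, minus strand) stood at 60.4, 61.6 and 61.1 CPM in untreated and at 55.0, 53.4 and 54.0 CPM in MGO. Its groups are separate and tight, and it fell 1.13-fold (log2 fold change -0.17, SE 0.0425, adjusted p = 0.000453, edgeR), with values from -0.36 to -0.11 over the alternatives.

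Over the 9 members, all of which passed the filter on low counts, 4 rose (IDH3A, IDH3B, IDH3G and CS), 4 fell (IDH1, IDH2, FH and MDH1) and 1, MDH2, did not pass. Most of the transcriptome moved in this comparison: 83.1% of tested genes were called, 41.8% as higher and 41.2% as lower, so 8 of 9 members called is close to the background. With library size as the only scaling, there were 2 rises and 4 falls among the members, and that scaling shifts the log2 fold changes of all genes by a median of -0.106. With no filter on low counts, which shifts the genes of the main fit by a median of -0.183, 2 rose, 6 fell and 1 did not pass. The groups of all 9 members were separate, as were those of 83.5% of tested genes, and for 4 members all MGO libraries lay below all untreated ones, as for 41.7% of tested genes. The median log2 fold change of the members was 0.05, beside 0.01 over all tested genes. One member, IDH1, was at least 2-fold lower, as were 16.7% of tested genes, and IDH1 alone was called against a fold of 1.5 in place of 1, where 22.6% of tested genes were lower and 47.7% passed in either direction. Of the 6 members that are mitochondrial only, 4 rose and 1 fell, beside MDH2 (median log2 fold change over the 6 of 0.12), and the 2 cytosolic members both fell.

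**Figure D3:**
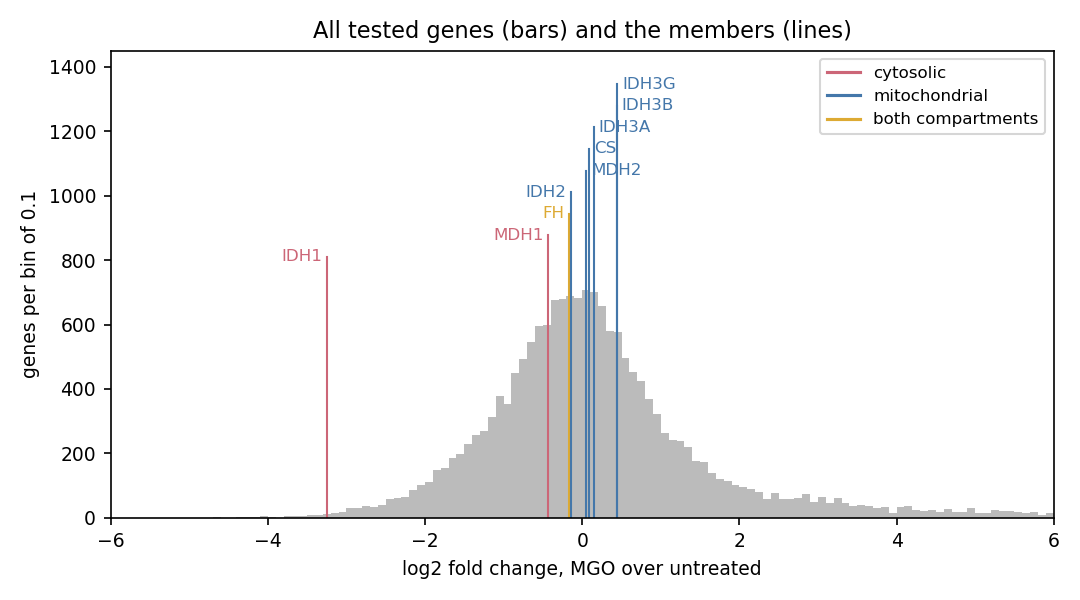
Histogram of log2 fold changes (MGO over untreated) of the 17415 tested genes in bins of 0.1, with a line for each member coloured by compartment; 134 genes lie beyond the axis limits. IDH1 at -3.25 stands in the far lower tail, and the other 8 members lie between -0.43 and 0.45.

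The order of the members by level, taken per kilobase of merged annotated exons so that genes can be compared, changed mainly through IDH1. In untreated cells the level was highest for MDH2 (181 CPM per kilobase), followed by CS (145), MDH1 (118), IDH3B (80.2), IDH1 (47.3), IDH2 (37.5), FH (34.0), IDH3G (19.3) and IDH3A (16.6). In MGO the order was MDH2 (188), CS (155), IDH3B (109), MDH1 (87.1), IDH2 (34.0), FH (30.1), IDH3G (26.4), IDH3A (18.4) and IDH1 (4.99). IDH1 thus moved from place 5 to place 9, and IDH3B and MDH1 changed places. In both groups the libraries of neighbours in the order did not overlap, but the lengths assume that all annotated exons are used, and another choice of transcripts would move neighbours such as IDH2 and FH. Spread between libraries was small, with a coefficient of variation of CPM from 0.510% (IDH3B) to 4.31% (IDH3G) in untreated and from 0.802% (MDH2) to 8.39% (IDH1) in MGO.

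The remaining 11 enzymes of the cycle on the list used here were split even within single complexes. Among them 4 fell, 3 rose and 4 missed the threshold, around a median of -0.01, where 41.2% of all tested genes were called lower and 41.8% higher. The 2-oxoglutarate dehydrogenase complex, which takes up the product of isocitrate dehydrogenase, was the clearest case. Its first component OGDH stood at 109, 112 and 114 CPM in untreated and at 29.6, 36.1 and 38.4 CPM in MGO (log2 fold change -1.68, SE 0.0622, adjusted p = 3.17e-14, edgeR). Its core component DLST stood at 152, 152 and 152 CPM in untreated and at 289, 300 and 311 CPM in MGO (log2 fold change 0.98, SE 0.0374, adjusted p = 3.75e-21, edgeR). The third component DLD, which other dehydrogenase complexes share, fell from 167 ± 3.90 to 93.9 ± 0.497 CPM. Among succinyl-CoA ligase genes, the shared alpha subunit SUCLG1 rose from 82.3 ± 0.290 to 101 ± 2.27 CPM and the GTP-forming beta subunit SUCLG2 fell from 37.3 ± 0.424 to 18.5 ± 1.68 CPM, while the ATP-forming beta subunit SUCLA2 had 54.7 ± 0.150 and 53.3 ± 2.04 CPM and did not pass (adjusted p = 0.442, edgeR). In succinate dehydrogenase, the membrane anchor SDHD rose from 42.6 ± 1.62 to 51.9 ± 5.38 CPM. Its MGO libraries 1, 3 and 4 stood at 57.4, 51.7 and 46.7 CPM, the order of their mitochondrial shares, and the part of that share in the result was not tested. The log2 fold change of SDHD was 0.28, and 0.18 without MGO replicate 1. With no filter on low counts the call was lost (0.097, adjusted p = 0.0915, edgeR). The other anchor SDHC, named after its values were seen, fell from 163 ± 2.99 to 111 ± 0.287 CPM, while the catalytic SDHA (281 ± 7.62 and 279 ± 3.38 CPM) and the iron-sulfur subunit SDHB (114 ± 0.926 and 115 ± 4.25 CPM) did not pass. With library size alone 7 of the 11 fell, and with no filter on low counts 8 fell.

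**Figure D4:**
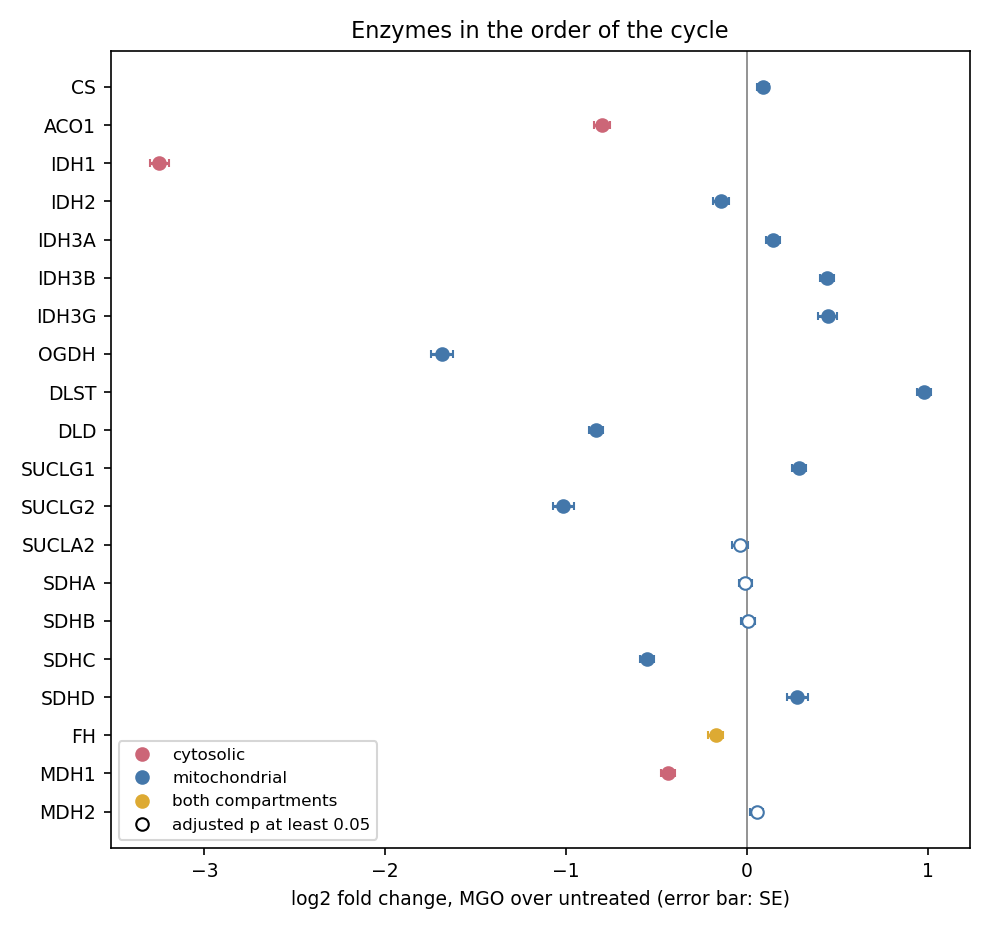
Log2 fold change (MGO over untreated) with its SE as error bar for members, ACO1 and 10 other cycle enzymes, in the order of the cycle; colour gives the compartment and open circles mark adjusted p of at least 0.05. IDH1 at -3.25 and OGDH at -1.68 lie farthest to the left, and DLST at 0.98 farthest to the right.

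Genes that feed the cycle or act on citrate outside the mitochondrion are read here against all tested genes, of which 41.2% were called lower and 41.8% higher. Of 14 genes for the entry of pyruvate, 11 fell and 3 rose (median log2 fold change -0.36). The largest falls were those of PDK3, a kinase that switches pyruvate dehydrogenase off (26.5 ± 1.54 to 12.3 ± 1.75 CPM), PDHB, its beta subunit (67.2 ± 0.815 to 38.7 ± 2.07 CPM), and PDP2, a phosphatase that switches it on (37.5 ± 1.87 to 24.4 ± 1.32 CPM). The genes that rose were PDK1 (29.6 to 46.1 CPM), PDPR (44.2 to 63.5 CPM) and the pyruvate carrier subunit MPC2 (36.2 to 40.5 CPM), whose sign turned with no filter on low counts (-0.025) and whose call was lost without MGO replicate 1 or 3 (adjusted p = 0.0511 and 0.0583, edgeR). The 4 genes on the list of citrate and aconitate outside the mitochondrion, which also holds the aconitase relative IREB2, all fell (median log2 fold change -0.61, beside the same 41.2% over all tested genes). ACLY, which splits cytosolic citrate, had a log2 fold change of -0.94, ACO1 one of -0.80 and IREB2, an RNA-binding regulator of iron metabolism, one of -0.41. The citrate carrier SLC25A1, named after its values were seen, had -0.11 with overlapping groups and lost its call under 9 of 19 alternatives.

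IDH1 is one of several sources of NADPH. No tested gene on a list around NADPH supply, called NADPH sources here, fell as far. Of 12 tested genes on that list (ME3 did not pass the filter), 7 fell, 2 rose and 3 (MTHFD2L, ALDH1L1 and ALDH1L2) did not pass, where 41.2% of all tested genes were called lower and 41.8% higher. Their log2 fold changes ran from -0.71 to 0.48. Malic enzyme 2 (ME2) fell from 183 ± 2.12 to 112 ± 3.31 CPM, the mitochondrial transhydrogenase NNT from 120 ± 2.38 to 85.0 ± 2.96 CPM and the NAD kinase NADK2 from 57.7 ± 0.541 to 40.9 ± 0.673 CPM. The folate enzyme MTHFD2 rose from 110 ± 0.606 to 153 ± 12.5 CPM. In the malate-aspartate shuttle and glutamate metabolism 7 of 12 genes fell and 4 rose, so 11 of 12 were called, where 83.1% of all tested genes were. SLC25A12, an aspartate-glutamate carrier, fell from 22.8 ± 0.646 to 7.94 ± 0.812 CPM, its relative SLC25A13 from 102 ± 2.18 to 53.0 ± 2.15 CPM and glutamine synthetase (GLUL) from 593 ± 6.85 to 360 ± 6.19 CPM. Beside GOT1, GPT2, an alanine aminotransferase, rose from 43.8 ± 0.345 to 47.4 ± 2.37 CPM, with its sign turned by no filter on low counts (-0.067) and its call lost in 5 of the 6 fits that leave out a library. GPT, the other alanine aminotransferase, rose from a low level (0.447 ± 0.0265 to 1.08 ± 0.260 CPM) and is named after its values were seen. Each gene named here or in the preceding paragraph as rising or falling passed the edgeR test at an adjusted p under 0.05.

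Among 10875 other tested genes that averaged at least 5 CPM and had an ordinary symbol, those whose pattern over the 6 libraries was nearest to that of IDH1 were B4GAT1, ITGA2, KCNS3 and HSPA1A, in that order. Likeness was the Euclidean distance between log2 CPM values centred on the untreated mean, from 0.153 for B4GAT1 to 0.228 for HSPA1A. B4GAT1, a glycosyltransferase of dystroglycan, went from 80.8 ± 0.798 to 8.39 ± 1.20 CPM, and the integrin subunit ITGA2 from 21.2 ± 0.813 to 2.30 ± 0.306 CPM. HSPA1A is nearly identical to HSPA1B, so its counts are uncertain.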

How the data were processed

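Poly(A) RNA of 6 libraries was measured, 3 per group. For each library the authors deposited a table of 56832 rows with whole-number counts, called raw in the labels. Trim Galore, Picard, STAR 2.4, HTSeq 0.9.1 and build hg38 are named, without roles, in the submitters' processing notes; annotation and strand are not given there. Rows with a date as name (29) held at most 0.242% of a library and are not named.

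Counts were analysed with edgeR 4.0.16 in R 4.3.3: filterByExpr (17415 genes), TMM, robust glmQLFit, a two-sided glmQLFTest (residual df of 4) and a threshold of 0.05 after Benjamini-Hochberg. Standard errors are the log2 fold change divided by the square root of F. Log2 CPM used a prior count of 2. Ratios within libraries used a pseudocount of 0.5 counts and exact permutation tests. The test was tried on simulated data. Positions and lengths come from GENCODE 29 (GRCh38), promoters from RefSeq. Genes named are the members, ACO1, genes within 1 kb of a member, up to 3 called rises and 3 called falls of at least 5 CPM per list, and the 5 most like IDH1; some of these are not reported here. Members and lists were chosen with earlier results of these data known. Alternatives included RLE, upper quartile and library size scaling, other filters, left-out libraries, limma 3.58.1 voom, DESeq2 1.42.0 and thinned counts. Chi-square statistics per degree of freedom between libraries of a group ran from 1.88 to 14.7, where sampling noise gives about 1. Each library was counted as a sample, but spread above sampling noise does not show that the libraries came from separate cultures.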

Additional observations from a re-analysis of the deposited data

How the results depend on the processing

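IDH1 and ACO1 kept direction and call under all 19 alternatives, and the 5 within-library ratios described kept their direction under 10 of 10. Signs turned with library size alone for CS (-0.016) and MDH2 (-0.052). With no filter on low counts they turned for IDH3A (-0.037), CS (-0.093), MDH2 (-0.13), MPC2 (-0.025), GPT2 (-0.067) and ZNF710 (-0.018). Both settings shift the genes of the main fit downward, by medians of -0.106 and -0.183. Among genes not called, SUCLA2 (0.028), CIB2 (0.032) and SSR4 (0.019) changed sign with at least 1 CPM in every library, and SUCLA2 (0.0081) and CIB2 (0.014) with thinned libraries. With library size alone and with no filter, members called higher went from 4 to 2. Other cycle enzymes called lower went from 4 to 7 with library size alone and to 8 with no filter, which also left 1 of the NADPH sources higher in place of 2.

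Against a fold of 1.5 fewer calls are made by construction: 4363 genes higher and 3942 lower over all, in place of 7282 and 7182. Among the 9 members 0 were then higher and 1 lower. Of the other cycle enzymes 1 was higher, of the pyruvate entry genes 0 were higher and 2 lower in place of 3 and 11, and of the citrate and aconitate genes outside the mitochondrion 2 were lower in place of 4. Of the NADPH sources 0 were higher and 1 lower in place of 2 and 7, of the shuttle and glutamate genes 1 was higher and 3 lower in place of 4 and 7, and of the lipoate and SDH assembly genes 0 were higher in place of 3. Of the 2-hydroxyglutarate enzymes 0 were lower.

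The 2-hydroxyglutarate enzymes called lower (2) were 1 with DESeq2, 1 with thinned untreated libraries and 1 with at least 1 CPM in every library, which left 0 higher in place of 1. Leaving out each library in turn gave 1 to 3 of them lower, with 1 without untreated replicate 4, 3 to 4 members higher and 4 members lower. The causes were not tested.

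The replicate numbers share 2 pairs only. Over all tested genes, deviations of same-numbered libraries from their group means had r = 0.0204 (number 1) and -0.0078 (number 4). Library 1 still had the highest mitochondrial share in both groups (5.42% in untreated, 8.17% in MGO). Chi-square per degree of freedom was 6.99 and 6.39 for untreated 1 against 2 and 4, beside 1.88 for 2 against 4. For MGO 1 against 3 and 4 it was 7.44 and 14.7, beside 3.43 for 3 against 4. A shared origin of the libraries numbered 1 was not tested. With the replicate number as a fixed block, which leaves 1 residual degree of freedom, 6778 genes were higher and 6673 lower, and 3 members were higher and 3 lower, without CS (adjusted p = 0.288, edgeR) and IDH2 (0.102). As a random block in limma voom the counts were 7295 and 7143, with 4 members each way. At these depths IDH1 rests on 265 to 269 counts in MGO.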

Other observations

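Genes that assemble cycle enzymes also moved apart. Of 7 genes for lipoate synthesis and succinate dehydrogenase assembly 4 fell and 3 rose (edgeR, adjusted p under 0.05, where 41.2% and 41.8% of all tested genes did). The assembly factors SDHAF4 (7.60 ± 0.799 to 2.59 ± 0.20 CPM), SDHAF3 (30.8 ± 1.31 to 18.0 ± 0.956 CPM) and SDHAF1 (39.2 ± 1.26 to 32.0 ± 0.722 CPM) fell, while SDHAF2, which attaches the flavin of SDHA, rose from 4.20 ± 0.321 to 6.47 ± 0.666 CPM. Lipoate synthase (LIAS) rose from 5.11 ± 0.50 to 6.67 ± 1.49 CPM, with overlapping groups and a call that was lost under 6 of 19 alternatives. Among these were the fits without untreated replicate 1 (adjusted p = 0.0554, edgeR) or MGO replicate 3 (0.243). Library size alone (0.0509) and no filter on low counts (0.131) also ended the call. The lipoyl transferases LIPT2 (3.91 ± 0.321 to 0.971 ± 0.380 CPM) and LIPT1 (2.25 ± 0.0865 to 3.30 ± 0.523 CPM) moved apart at low levels and are named after their values were seen.

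Among the 4 enzymes that make or remove 2-hydroxyglutarate, 2 fell, 1 rose and 1 did not pass, where 41.2% of all tested genes were called lower and 41.8% higher. PHGDH, the first enzyme of serine synthesis, fell from 277 ± 7.79 to 228 ± 7.15 CPM, and D2HGDH, which oxidises D-2-hydroxyglutarate, from 8.23 ± 0.354 to 6.97 ± 1.05 CPM with overlapping groups and a call that was lost without untreated replicate 4 (adjusted p = 0.0743, edgeR) or MGO replicate 4 (0.146). The gene that rose was ADHFE1, a hydroxyacid-oxoacid transhydrogenase (0.294 ± 0.0507 to 1.14 ± 0.0931 CPM), named after its values were seen. It had only 12 to 15 counts in each untreated library and passed the filter on low counts through the MGO libraries, so its call is given as a description, and with at least 1 CPM in every library it was not tested.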
